A study of Homo sapiens with 2 samples.

Results

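The NOTCH receptors, ligands and targets followed here are 10 genes: the receptors NOTCH1, NOTCH2 and NOTCH3, the ligands JAG1, JAG2 and DLL1, the nuclear factors RBPJ and MAML1, and the target genes HES1 and HEY1. Their members are all probe sets of the Affymetrix HG-U133 Plus 2.0 array whose annotation holds exactly 1 gene symbol, that symbol being 1 of the 10. This gave 27 of the 54675 probe sets on the array, or of the 41091 with 1 symbol. The total RNA samples were labelled as MM.1S cells, an established human multiple myeloma line with plasma cell features. One group was MM.1S cultured with plasmacytoid dendritic cells (pDCs), the rare blood cells that secrete large amounts of interferon alpha. The other group was MM.1S cultured alone. With 1 array per group there was no replicate error to set a difference against, and no test was possible. The sources used here do not state the culture time, the number or source of the pDCs, or whether the cell types were separated before extraction.

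NOTCH receptors are surface proteins that are activated by ligands of the Jagged and Delta-like families on a neighbouring cell. Ligand binding lets ADAM proteases and then gamma-secretase cut the receptor, and the freed intracellular part enters the nucleus. There it joins the DNA-binding protein RBPJ and a Mastermind-like coactivator such as MAML1, and genes of the HES and HEY repressor families are transcribed. In myeloma the pathway is known for contacts between tumour cells and bone marrow cells, and JAG1 and JAG2 are made by myeloma cells themselves.

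Signals are MAS5 intensities, scaled so that the 2% trimmed mean was 500.1 on both arrays. The median signal of each array, 115.9 with pDCs and 124.0 alone, served as a floor, because no detection calls were used. A log2 ratio is MM.1S with pDCs over MM.1S alone. Where a probe set lay below the floor on 1 array its ratio was taken against the floor and is a bound, written "at least". Where it lay below on both it has no ratio. The 3' to 5' signal ratio of the ACTB control probe sets, which rises as RNA is degraded, was 8.09 with pDCs and 19.5 alone, and that of GAPDH was 2.46 and 3.07. Its part in the results below was not tested. Of 10 plasma cell and myeloma markers, 10 were above the floor on each array, with SDC1 at 10177 and 10503, CD38 at 1060.2 and 1686, IRF4 at 11634 and 11111, and XBP1 at 31891 and 44501. Of 18 measured pDC markers, 11 were above the floor with pDCs and 14 alone, with summed signals of 29829 and 23284, of which LAMP5, named after its values were seen, made up 19601 and 9053. The list did not move one way: its median log2 ratio was -0.34, with 1 gene (LAMP5) at least 2-fold higher with pDCs and 5 at least 2-fold lower, namely GZMB (174 and 604), PACSIN1 (400 and 928), MAP1A (36.3 and 275), BCL11A (94.6 and 269) and TLR9 (111 and 260). These 5 were also named after their values were seen. The defining pDC markers CLEC4C (61.4 with pDCs, 6.43 alone) and IL3RA (29.0 and 21.1) were below the floor on both arrays, while LILRA4 was at 306 and 256. The 5 genes named as lower had their higher signal in the culture labelled as MM.1S alone, and the cell source of these signals was not tested. If the RNA came from a whole culture, which is not stated, fewer cells of a type and less RNA per cell cannot be told apart.

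RBPJ binds DNA through a short core, searched here as TGGGAA on both strands of RefSeq promoter windows (GRCh38.p14, 250 bases before to 50 after the annotated gene start). Of all 35116 windows, 24.0% held at least 1 copy and 3.80% held 2 or more. Windows were found for 8 of the 10 members, 12 windows in all, and the core was present in that of HES1 and in 1 of the 5 RBPJ windows. Of 18 genes listed as NOTCH targets, 14 had a window, and the core was found in HES1, HES4, HES5, HEY2 and HEYL, while HES2, HES6, HES7 and the other 6 had none. By gene, 28.1% of all 27305 genes with a window held the core in at least 1 window, against 25.0% of the members (2 of 8) and 35.7% of the targets (5 of 14). A match describes the letters and does not show binding. The 3 windows of target genes whose signals were above the floor are shown with the core in capitals (as TTCCCA where it lies on the opposite strand), since these genes are the transcriptional readout of the pathway. They were picked after their signals were seen. HES1 lies on the plus strand at chr3:194135898-194136197, HEY2 on the plus strand at chr6:125749382-125749681 and HEYL on the minus strand at chr1:39639594-39639893, each printed 5' to 3' along the gene.
HES1: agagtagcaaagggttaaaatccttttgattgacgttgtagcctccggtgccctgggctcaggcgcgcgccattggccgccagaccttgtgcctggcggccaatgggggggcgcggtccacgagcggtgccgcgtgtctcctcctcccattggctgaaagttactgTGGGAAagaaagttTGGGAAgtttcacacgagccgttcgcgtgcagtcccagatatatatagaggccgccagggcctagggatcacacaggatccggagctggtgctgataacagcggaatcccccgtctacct
HEY2: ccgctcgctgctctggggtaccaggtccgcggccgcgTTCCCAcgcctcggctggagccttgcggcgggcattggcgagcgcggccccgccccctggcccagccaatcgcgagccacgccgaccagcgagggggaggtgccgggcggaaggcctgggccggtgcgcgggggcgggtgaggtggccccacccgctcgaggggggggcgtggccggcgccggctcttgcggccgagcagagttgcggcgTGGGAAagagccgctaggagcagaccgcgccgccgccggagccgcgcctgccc
HEYL: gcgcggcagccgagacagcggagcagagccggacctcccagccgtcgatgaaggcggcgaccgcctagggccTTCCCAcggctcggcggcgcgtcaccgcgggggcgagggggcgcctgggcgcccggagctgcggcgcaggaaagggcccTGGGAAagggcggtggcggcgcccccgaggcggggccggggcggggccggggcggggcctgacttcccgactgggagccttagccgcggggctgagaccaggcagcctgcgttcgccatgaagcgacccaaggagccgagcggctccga

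In HES1 the 2 copies point the same way and begin at -84 and -70 from the gene start, with 8 bases between them. Windows with 2 or more copies on the gene's own strand made up 1.21% of all windows. In HEY2 and HEYL the copies lie on opposite strands, 204 and 73 bases apart. The RBPJ window with the core also had 1 copy on each strand, with 37 bases between them. The windows of NOTCH1, NOTCH2, NOTCH3, JAG1, JAG2 and MAML1 held none of these letters.

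**Figure D1:**
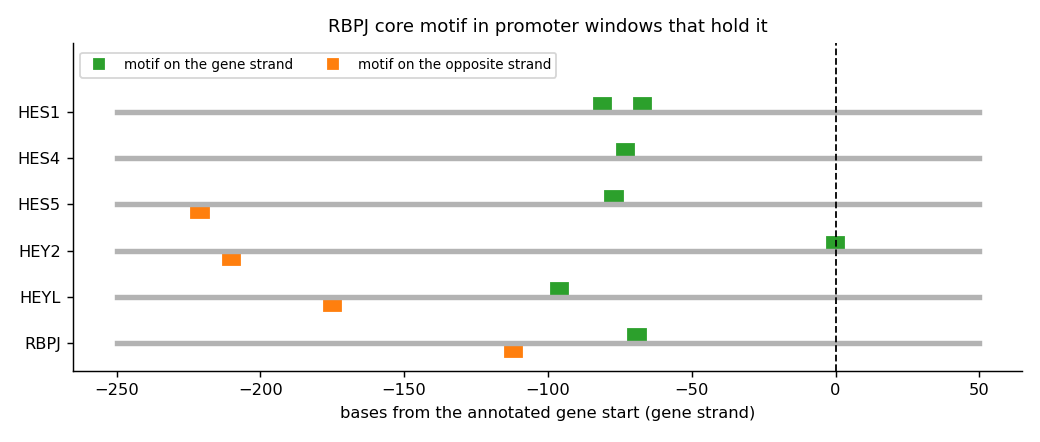
Positions of the RBPJ core motif in the promoter windows of target genes and members that hold it. The x axis is the distance in bases from the annotated gene start, grey lines are the windows and boxes are motif copies on the gene strand (above the line) or the opposite strand (below). The HES1 copies begin at -84 and -70, and the gene-strand copies of HES4, HES5 and RBPJ begin between -80 and -70.

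Most members differed by less than 2-fold between MM.1S with pDCs and MM.1S alone. On their brightest probe sets the receptor NOTCH2 and the ligand JAG1 were lower with pDCs. The nuclear factors RBPJ and MAML1 and the target HEY1 were slightly higher. Averaging all probe sets turned the log2 ratio of NOTCH2 to 0.10 and that of RBPJ to -0.67. Of the 27 probe sets, 13 were above the floor on both arrays, 3 only in MM.1S alone, 2 only in MM.1S with pDCs, and 9 on neither. A probe set above the floor on 1 array only can have its ratio on 1 side alone, so the signs of those 5 were set by the floor. Of the 13 above it on both, 8 were higher with pDCs and 5 lower (61.5% higher), against 49.6% higher over all probe sets above it on both. Of the 18 with a ratio, one member probe set (NOTCH2) was at least 2-fold higher with pDCs, and 1 (JAG2) was at least 2-fold lower. Over all such probe sets, 4.25% were at least 2-fold higher and 4.73% at least 2-fold lower, and the members' share of 5.56% each way is close to this background. Both members past 2-fold were bounds that rest on a signal under the floor on 1 array.

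**Figure D2:**
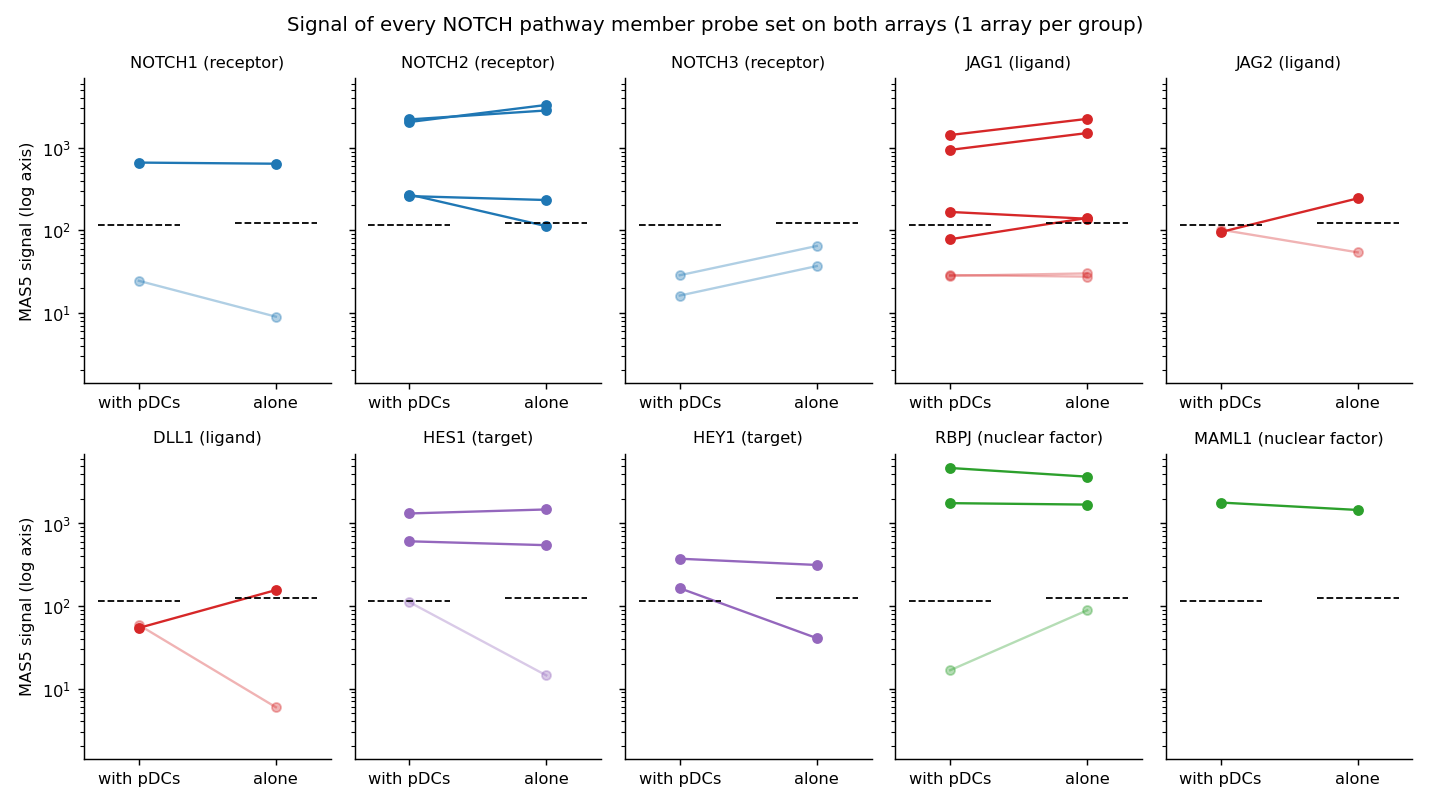
MAS5 signal (log axis) of each of the 27 member probe sets in MM.1S with pDCs and MM.1S alone, 1 array each. Lines join the same probe set, dashed bars are the floor of each array (115.9 and 124.0), and pale lines are probe sets below it on both. The bright JAG1 and NOTCH2 lines are lower with pDCs, and the RBPJ and MAML1 lines above the floor are slightly higher.

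Among the receptors, NOTCH1, best known for activating mutations in T cell leukaemia, differed little. Its bright probe set had a signal of 661 with pDCs and 641 alone, a log2 ratio of 0.05. The other NOTCH1 probe set, at 24.4 and 8.98, was below the floor on both arrays.

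NOTCH2, which mouse B cells need to become marginal zone cells, gave different answers on its 4 probe sets. Probe set 202443_x_at had 2051 with pDCs and 3305 alone, 1.61-fold lower (log2 ratio -0.69). Probe set 212377_s_at had 2205 and 2833 (log2 ratio -0.36). These are the NOTCH2 probe sets with the highest signals, and both were lower with pDCs. Probe set 202445_s_at had 260 with pDCs and 233 alone (log2 ratio 0.16). Probe set 210756_s_at had 271 with pDCs and 112 alone, at least 2.19-fold higher, since the signal of cells alone was just under the floor. Of the dimmer probe sets, only 202445_s_at had a direction measured on both arrays, and the sign of 210756_s_at was set by the floor. A further probe set, 227067_x_at, is annotated to NOTCH2 and to 4 NOTCH2NL genes, which are near-copies of its first part, and is no member. Its signal was 6519 with pDCs and 11918 alone, 1.83-fold lower. Probe sets of the x_at class can bind several transcripts, so NOTCH2 and its copies are not separated with certainty.

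NOTCH3, a receptor best known from vascular smooth muscle, was below the floor on both arrays. Its probe sets had 28.5 and 16.2 with pDCs, against 64.6 and 36.9 alone. No ratio was taken.

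Among the ligands, JAG1 alone passed the floor on both arrays with any probe set. JAG1, a Jagged ligand, had 6 probe sets. The brightest, 209099_x_at, had 1428 with pDCs and 2240 alone, 1.57-fold lower (log2 ratio -0.65). The next, 216268_s_at, had 943 and 1508, 1.60-fold lower (log2 ratio -0.68). These differ from each other by less than 0.1 on the log2 scale. Probe set 209098_s_at had 77.9 with pDCs, under the floor, and 141 alone, at least 1.22-fold lower. Probe set 231183_s_at, close to the floor, went the other way with 167 and 138 (log2 ratio 0.27). The remaining JAG1 probe sets, at 28.1 and 28.7 with pDCs and 30.04 and 27.4 alone, were below the floor.

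JAG2, the second Jagged ligand, had 95.1 with pDCs and 244 alone on probe set 32137_at, at least 2.10-fold lower. This bound was just under 2-fold after a loess fit (log2 ratio -0.98). Its other probe set had 102 with pDCs and 54.0 alone, both under the floor. The JAG2 difference therefore rests on 1 probe set and 1 signal above the floor.

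DLL1, a Delta-like ligand, had 54.2 with pDCs and 156 alone on probe set 227938_s_at, at least 1.35-fold lower. Its other probe set had 58.9 and 5.93, below the floor on both arrays. The sign of the JAG2 and DLL1 ratios was set by the floor, since each passed it only in MM.1S alone. JAG1 was the ligand whose direction was measured on both arrays, at a log2 ratio of -0.65 on its brightest probe set and -0.32 with its 6 probe sets averaged. All 6 are of the x_at and s_at classes, so JAG1 has no value without them.

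The nuclear factors were on the other side. RBPJ, the DNA-binding protein on which all the receptors converge, had 4704 with pDCs and 3692 alone on 211974_x_at, 1.27-fold higher (log2 ratio 0.35). Its probe set 207785_s_at had 1763 and 1694 (log2 ratio 0.06). A further one, at 16.7 and 88.7, was below the floor on both arrays, and averaging all 3 turned the RBPJ ratio to -0.67. MAML1, the coactivator that locks the receptor fragment onto RBPJ, had a single probe set with 1793 with pDCs and 1458 alone, 1.23-fold higher (log2 ratio 0.30). None of these reached 2-fold.

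The target genes differed little where they were measured well. HES1, a repressor that is switched on directly by NOTCH, had 1323 with pDCs and 1479 alone on 203394_s_at (log2 ratio -0.16). It had 608 and 546 on 203395_s_at (log2 ratio 0.16). The bright HES1 probe sets thus pointed in opposite directions by nearly the same amount. Its dim probe set, 203393_at, had 111 with pDCs, just under the floor, and 14.4 alone. Averaging all 3 gave HES1 a log2 ratio of 0.98, which comes from that dim probe set.

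HEY1, a related repressor, had 374 with pDCs and 314 alone on 44783_s_at (log2 ratio 0.25). On 218839_at it had 164 and 40.8, at least 1.33-fold higher. Only 44783_s_at had a direction measured on both arrays, and the sign of 218839_at was set by the floor. Neither was past 2-fold on this scale. Without a floor the second would be 4.03-fold higher, with a signal in cells alone that lies under the floor.

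**Figure D3:**
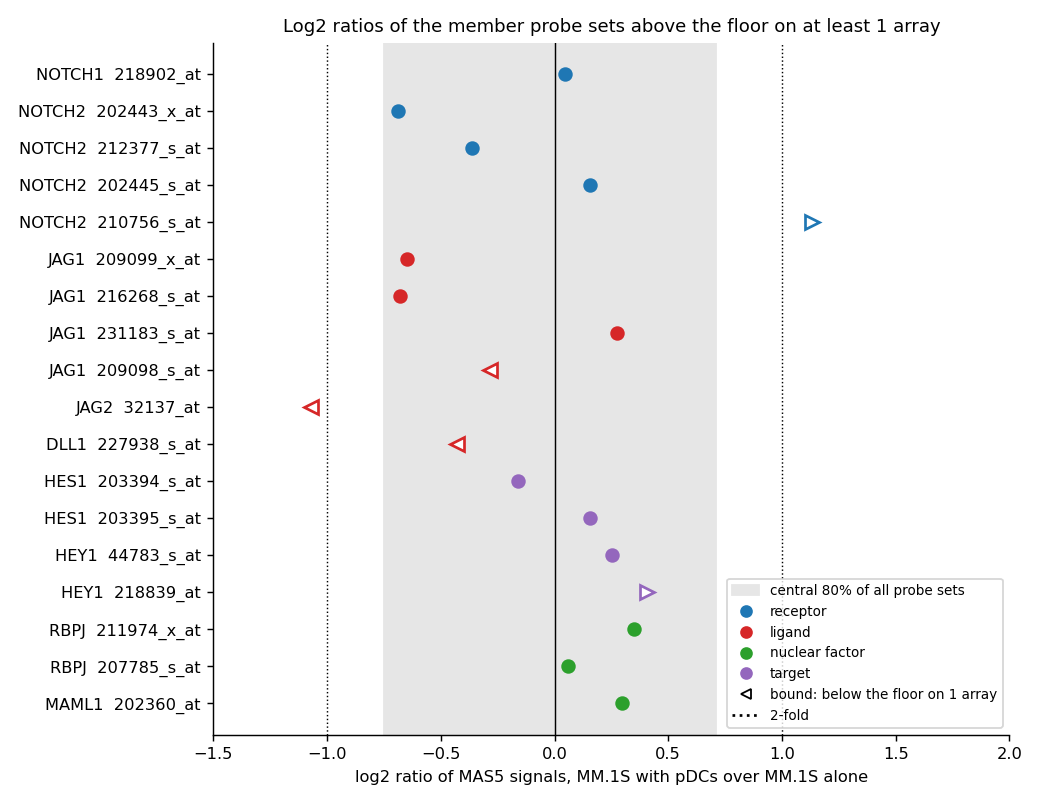
Log2 ratio of MAS5 signals (MM.1S with pDCs over MM.1S alone) for the 18 member probe sets above the floor on at least 1 array, coloured by role. Open triangles are bounds pointing to the side of the larger difference, dotted lines mark 2-fold and the grey band holds the central 80% of all probe sets. Most of the members lie in the band, and only the NOTCH2 and JAG2 bounds lie past 2-fold.

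Without replicates, the spread of all probe sets and the disagreement between probe sets of the same gene are the available scales for these differences. Probe sets over the floor on both were divided into 4 bands of equal number by mean signal. In the brightest band the central 80% of log2 ratios ran from -0.53 to 0.53, and in the next from -0.59 to 0.66. Of the 13 members above the floor on both arrays, 3 (23.1%) lay outside the central 80% of their band, close to the 20.0% of all probe sets that do so. These were JAG1 on 209099_x_at and 216268_s_at and NOTCH2 on 202443_x_at. RBPJ, MAML1, HES1, HEY1 and NOTCH1 lay inside it.

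The 3 JAG1 probe sets with signal over both floors spanned 0.95 on the log2 scale, and the 3 of NOTCH2 spanned 0.85. Over 1237 genes with 3 such probe sets the median span was 0.70, the 90th percentile was 1.39, and 60.5% of them had both signs. HES1 spanned 0.32 and RBPJ 0.29 over 2 probe sets each, against a median of 0.42 over 2947 genes with 2. On probe sets over both floors, the log2 ratios of NOTCH1, HES1, HEY1, RBPJ and MAML1 were smaller in size than that median of 0.42. A span between probe sets is a different measure from the size of a single ratio, so it sets no threshold.

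**Figure D4:**
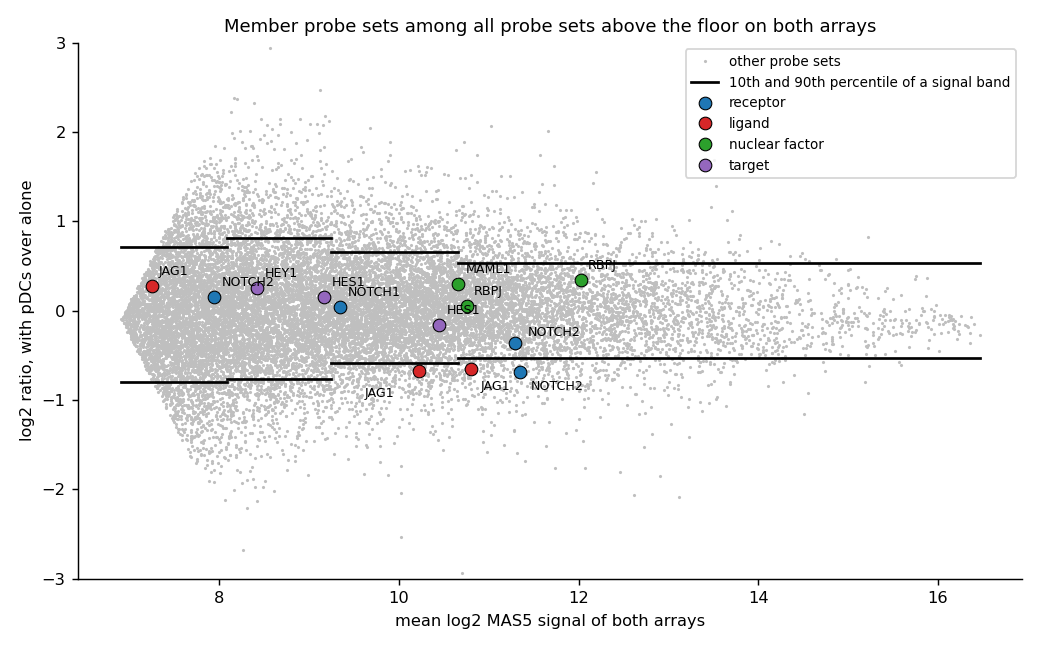
Log2 ratio (MM.1S with pDCs over MM.1S alone) against mean log2 MAS5 signal for probe sets over both floors (grey), with the 13 members coloured by role. Black lines are the 10th and 90th percentile in each of 4 signal bands, and 2 grey probe sets lie beyond the plotted range. The 2 bright JAG1 probe sets and 1 of NOTCH2 lie under the lower lines.

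The wider pathway was described with 9 lists by role, holding 77 genes with the members, of which 72 were measured and 61 had a ratio on their brightest probe set. The other 5 were not analysed here. Of the 61, 51 were above the floor on both arrays, and 31 of these were higher with pDCs and 20 lower (60.8% higher), against 47.7% higher over all genes above it on both. Of the 61, one (1.64%) was at least 2-fold higher and 5 (8.20%) at least 2-fold lower, while over all 14254 genes with a ratio these shares were 3.20% and 4.56%. The median log2 ratio over all genes was -0.04. Over the 9 member genes with a ratio it was -0.16, and over the 7 above the floor on both arrays 0.05. Of these 7, NOTCH1, HEY1, RBPJ and MAML1 were positive and NOTCH2, JAG1 and HES1 negative. With all probe sets averaged NOTCH2 turned to 0.10, and HES1 and RBPJ turned as given above.

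Of the 5 ligands, JAG1 alone was above the floor on both arrays, so the other signs were set by the floor and no direction is given for the list. DLL3, a Delta-like protein that mostly blocks NOTCH within the same cell, had 113 with pDCs and 278 alone on its brightest probe set, at least 2.40-fold lower. Another DLL3 probe set went the opposite way, with 150 and 54.1. DLL4, named after its values were seen, had 139 with pDCs and 93.5 alone, at least 1.12-fold higher. Among 4 receptors, NOTCH4, named after its values were seen, had 178 with pDCs and 288 alone (log2 ratio -0.70, or -0.02 with a higher floor at the 70th percentile). The receptor list had a median of -0.69 over 3 genes, which turned to 0.07 with the average over probe sets.

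Genes that act on the ligands by endocytosis had a median of 0.17 over 5. MIB2, a ubiquitin ligase that marks NOTCH ligands for uptake, had 170 with pDCs and 373 alone, 2.19-fold lower. Its probe set 241378_at had 112 with pDCs, under the floor, and 362 alone, so its sign was set by the floor. Probe set 228261_at, above the floor on both arrays, had a log2 ratio of -0.23. The 2 MIB2 probe sets below both floors had 105 and 28.3 with pDCs, against 71.9 and 17.6 alone. MIB2 was no longer past 2-fold with all 5 averaged (log2 ratio -0.11) or with the floor at the 70th percentile (-0.40). Its relative MIB1, named after its values were seen, had 981 and 873 (log2 ratio 0.17). Enzymes that add sugars to the receptors had a median of -0.30 over 5, with MFNG, a fringe enzyme, at 4870 and 5996 (log2 ratio -0.30). Averaging all probe sets gave this list 0.08 and MFNG 0.43.

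Proteases that cut the receptors had a median of 0.12 over 8, which turned to -0.23 with all probe sets averaged and to -0.05 without the x_at and s_at classes. ADAM10, the protease that makes the ligand-dependent cut, was 1.48-fold higher with pDCs (9927 and 6718). Its 2 dimmer probe sets were higher too, with log2 ratios of 0.89 and 0.76. Inhibitors and turnover factors had a median of -0.18 over 8, and of -0.09 over the 6 above the floor on both arrays. Of these 6, 5 were negative and 1 (16.7%) positive, against 47.7% higher over all genes above it on both. NUMBL (-0.01), DTX4 (-0.03) and ITCH (-0.24) are named after their values were seen. DTX4 was at 0.007 after quantile normalization. ITCH was at 0.12 with all probe sets averaged and at 1.17 without the x_at and s_at classes. AAK1, a kinase of endocytosis, had 1400 and 1740 (log2 ratio -0.31). The glycosylation, cleavage and turnover lists held no gene past 2-fold on its brightest probe set.

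All 7 nuclear complex genes with a ratio were positive as deposited, against 47.7% higher over all genes above the floor on both arrays. This count was not tested. The lowest was the histone acetyltransferase CREBBP (named after its values were seen) at 0.03, or -0.003 after quantile normalization. With all probe sets averaged, CREBBP (-0.09) and RBPJ were negative. RBPJ (0.35 and 0.06) and MAML1 (0.30) lay inside the central 80% of their signal band, -0.53 to 0.53. The other genes of this list were not compared with their bands. The list median was 0.32, and it stayed between 0.30 and 0.33 in every alternative. MAML2, a relative of MAML1 named after its values were seen, had 877 with pDCs and 454 alone, 1.93-fold higher. Its other probe set, at 149 and 78.0, was at least 1.20-fold higher. The acetyltransferase EP300, also named after its values were seen, had 1424 and 975 (log2 ratio 0.55), with 0.12 on another probe set. Corepressors that act through RBPJ had a median of 0.08 over 9, or -0.12 with all probe sets averaged, and CTBP1, the brightest, had 9368 and 7669 (log2 ratio 0.29).

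Of 9 target genes above the floor on both arrays, 6 were higher (66.7%) and 3 lower, with a median of 0.22. Over all genes above it on both, 47.7% were higher, and the difference in share was not tested. With all probe sets averaged, CR2 and HEYL turned negative and HES1 and PTCRA positive. With the 3 target genes above the floor only in MM.1S alone the median was -0.07. It was positive with a higher floor (0.03) and without the x_at and s_at classes (0.07). HES6 had 2287 with pDCs and 755 alone, 3.03-fold higher, on its single probe set. HES6 is a HES family member known to counteract HES1 in the mouse, and it differed most on the higher side. Its promoter window held no core, and the part of NOTCH in its difference was not tested. CDKN1A, the cell cycle inhibitor p21, had 1559 and 3977, 2.55-fold lower on its single probe set. CCND1, the cyclin D1 gene, had 108 with pDCs and 309 alone, at least 2.67-fold lower, with a log2 ratio of -0.66 on its other probe set and of -0.12 with the higher floor. Both have many other regulators.

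The HES and HEY relatives that follow were named after their values were seen, for the motifs in their windows. HEY2 had 680 with pDCs and 553 alone (log2 ratio 0.30), with 0.40 on its other probe set. HEYL had 245 and 211 (log2 ratio 0.22), while its other probe set had 29.6 with pDCs, under the floor, and 182 alone. Averaging its probe sets gave HEYL a log2 ratio of -0.76. HES4 and HES5 were below the floor on both arrays. PTCRA and CR2, listed as targets, also stand in the pDC and the B cell marker lists, and had log2 ratios of -0.48 and 0.03. With all probe sets averaged these turned to 0.82 and -0.81. Monocyte markers, which were not part of the pathway, were above the floor for 3 of 8 genes with pDCs and 5 of 8 alone, with summed signals of 509 and 1613. Of these sums LYZ made up 17.0 and 711. The 3 above the floor with pDCs, S100A8 (116), FCN1 (123) and CSF1R (121), lay close to that floor of 115.9. LYZ and these 3 were named after their values were seen. The sample labels name no monocytes. The part of the monocyte markers in the lower JAG1 signal was not tested.

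**Figure D5:**
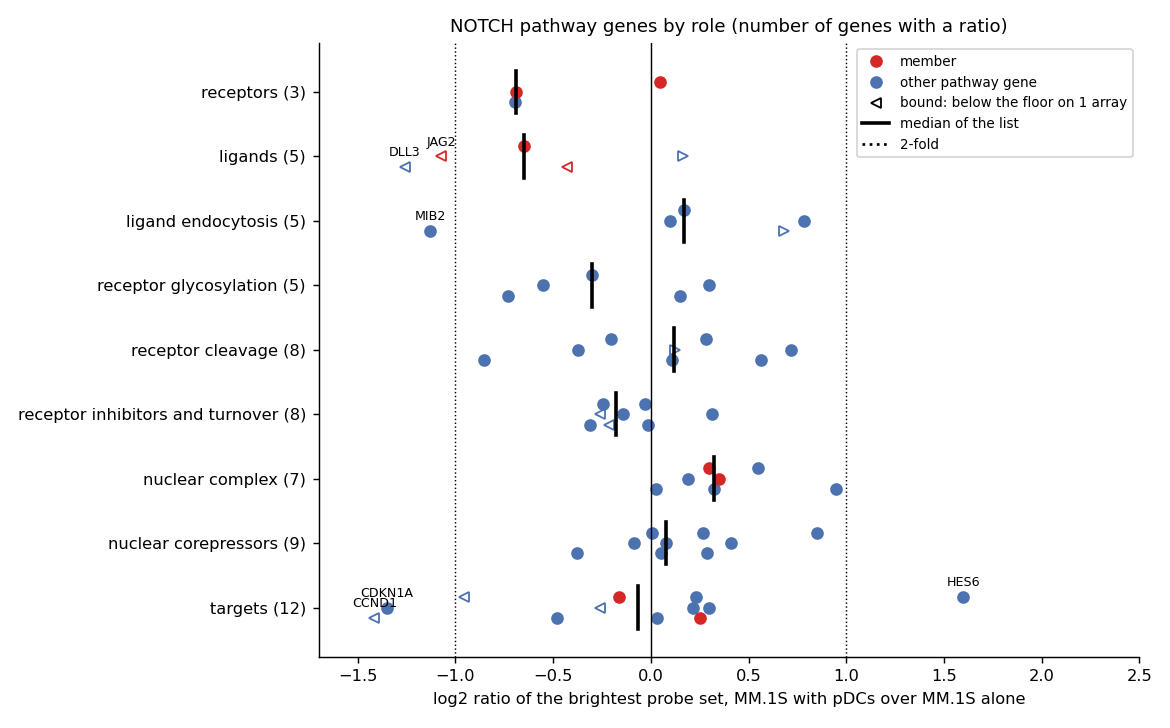
Log2 ratio of the brightest probe set (MM.1S with pDCs over MM.1S alone) for each NOTCH pathway gene with a ratio, by role, with members in red. Open triangles are bounds, black bars are list medians and dotted lines mark 2-fold. Nuclear complex genes lie right of 0 (CREBBP at 0.03, or -0.003 after quantile normalization), and JAG1 is the only ligand drawn as a filled point, above the floor on both arrays.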

How the data were processed

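Expression in MM.1S cells with pDCs and alone was measured on 1 array per group, so the number of arrays limits precision. The deposited values are linear MAS5 intensity signals, as the submitters' processing notes name the tool. No MAS5 version or detection calls were given in these sources. Scaling to a common average hides a change shared by most transcripts. Probe sets were named from the platform annotation, with symbols looked up by gene identifier in RefSeq (GRCh38.p14). Members were taken at the level of probe sets, and other pathway genes through their brightest probe set. Signals under the array's median were set to it; a bound that changed sign because the floors differ gave no ratio. A difference of 2-fold was a threshold of size.

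Named were all members, pathway genes past 2-fold, the brightest gene of lists with none, and 7 identity markers; other genes are marked, or named for the motif search. The members and lists were chosen with earlier results of these data known. The protein comparison that had been planned was not run. Alternatives were median centring, quantile normalization, loess (span 0.3), a lower floor (30th percentile), a higher one (70th) and none, the mean over probe sets, leaving out x_at and s_at probe sets, and thresholds of 1.5-fold and 3-fold. The scaling and ratio steps were tested on simulated data in which 200 bright probe sets were changed. The choice of the brightest probe set, the signal bands and the motif search were not part of that test. Python 3.11.15, numpy 2.4.6, pandas 2.3.3, statsmodels 0.14.6 and matplotlib 3.10.9 were used.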

Additional observations from a re-analysis of the deposited data

How the results depend on the processing

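All 13 member probe sets that passed both floors kept their sign under median centring, quantile normalization and loess. The other alternatives could not turn the sign of such a probe set, so they say nothing about it. At gene level 4 of 7 such members kept their sign under each alternative that gave one, as did 28 of 44 other pathway genes. NOTCH2, HES1 and RBPJ turned with the mean over probe sets. The ligand median of -0.65, 4 of whose 5 signs the floor sets, was -1.29 with the lower floor or none, -0.45 without x_at and s_at probe sets and -0.08 with the mean over probe sets. The 1 member probe set past 2-fold on the higher side became 3 with the lower floor, 5 with no floor and 0 with the higher floor, without x_at and s_at probe sets or at 3-fold. The 1 on the lower side became 3 with the lower floor, 5 with no floor, 4 at 1.5-fold and 0 with loess, the higher floor or 3-fold. Pathway genes past 2-fold higher (1) numbered 2 without x_at and s_at probe sets and 6 at 1.5-fold. Those lower (5) numbered 10 with the lower floor, 13 with no floor, 11 at 1.5-fold, 3 with the mean over probe sets, 2 without x_at and s_at probe sets, 1 with the higher floor and 0 at 3-fold. The members' median of -0.16 was -0.38 with the lower floor and -0.41 with none, and turned positive with the higher floor (0.045), the mean over probe sets (0.10) and without x_at and s_at probe sets (0.17). List medians turned with the mean over probe sets for receptors (0.066), receptor glycosylation (0.078), receptor cleavage (-0.23) and corepressors (-0.12). Without x_at and s_at probe sets, cleavage gave -0.047 and targets 0.070, and the higher floor gave targets 0.03. A lower floor admits dim signals and a higher one removes them, and the mean counts probe sets below the floor. Their part in the changes in count was not tested, and counts also changed with loess, other thresholds and fewer probe set classes. No paired analysis was possible because each group had 1 array. Signals near the floor limit what can be said of JAG2, DLL1, NOTCH3 and the dim probe sets of NOTCH2 and HES1.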
